A study of Homo sapiens with 6 samples.

Results

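The proteasome is the protease complex that degrades ubiquitin-tagged proteins. Its genes were followed in MM1.S, a plasma cell line grown out of a multiple myeloma, on 3 arrays of cells that carried the lentiviral pKLO beta-catenin shRNA and 3 arrays of cells that carried the pKLO GFP control. Members were chosen by symbol from the array annotation: symbols that begin PSMA, PSMB, PSMC, PSMD, PSME, PSMF or PSMG, without PSMC3IP, and with POMP and ADRM1 added. The rule took 53 symbols, of which 51 of the 19775 genes on the array had a probe set (a group of probes that reads a single value) with that symbol alone. Of these 51, 44 encode subunits, activators, an inhibitor or assembly factors, and 7 are neighbouring RNAs or a binding partner. PSMA6 and PSME2 were read only by probe sets that carry a further symbol and were not analysed here, nor were PSMB11, PSMC5, PSMD7 and PSMD13. Both kinds of culture had been infected and sorted for GFP, so they share the vector and the sort. The cells are 1 line, the triplicates were cultures of sorted cells with no separate infections described, and the hairpin's sequence and number are not given in the labels used here.

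The core particle, called 20S, is a barrel of a pair of outer alpha rings and a pair of inner beta rings, and 3 of the beta subunits in each inner ring cut peptide bonds. The regulatory particle, called 19S, has a base that unfolds substrates with a ring of ATPases and a lid that removes ubiquitin. In cells exposed to interferon, and constitutively in many blood cells, PSMB8, PSMB9 and PSMB10 replace the 3 constitutive cutting subunits to form the immunoproteasome. Plasma cells secrete large amounts of antibody and carry a heavy load of misfolded protein, and inhibitors of the beta5 subunit PSMB5 such as bortezomib are standard drugs in multiple myeloma.

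The values are log2 expression with a floor at 4, which fits log2(signal + 16), so a fold on this scale understates the change of a dim gene. CTNNB1, the targeted gene of beta-catenin, read 6.39, 6.53 and 6.34 in beta-catenin shRNA arrays and 7.82, 7.67 and 7.75 in control arrays by its brightest probe set, and its other 2 probe sets changed by 0.33 and −0.07. All 8 plasma cell markers checked, among them SDC1, IRF4 and XBP1, lay above the filter on dim genes, with 3 called lower and 3 higher. Of 21 markers of T and NK, myeloid, fibroblast, epithelial and erythroid cells, 11 lay above it. Of the 11, HBB was called higher (0.24), as was CSF1R (0.31), and none was called lower. The shares to set beside both marker counts are those of all genes tested, 22.0% called lower and 25.3% called higher. The HBB call was lost in 11 of 18 alternatives and the CSF1R call in 10 of 17. The log2 of the summed marker levels was 13.38 to 13.44 in beta-catenin shRNA and 13.32 to 13.36 in control arrays for plasma cells, and 9.16 to 9.22 in beta-catenin shRNA and 8.84 to 9.16 in control arrays for erythroid cells. In beta-catenin shRNA arrays it was 7.72 to 7.77 for T and NK cells, 7.70 to 7.76 for myeloid cells, 9.00 to 9.08 for fibroblasts and 7.98 to 8.03 for kidney epithelial cells. In control arrays it was 7.75 to 7.82 for T and NK cells, 7.62 to 7.75 for myeloid cells, 8.92 to 9.06 for fibroblasts and 8.01 to 8.19 for kidney epithelial cells. The 6 ribosomal RNA control probe sets averaged 9.75, 9.81 and 10.22 in beta-catenin shRNA arrays and 8.60, 9.63 and 8.84 in control arrays, and did not overlap. The 3' minus 5' difference of ACTB was 0.58 ± 0.05 in beta-catenin shRNA and 0.67 ± 0.19 in control arrays (SD, n = 3 each; exact permutation p = 0.7). The part of these markers and of ribosomal RNA in the results was not tested.

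Most proteasome genes fell. All 44 passed the filter on dim genes, and 39 were called lower in beta-catenin shRNA cultures and 1 higher, against 22.0% of the 12939 genes tested called lower, 25.3% called higher and 47.3% called either way (limma, Benjamini-Hochberg adjusted p under 0.05). The median change of the 44 was −0.59 on the log2 scale, with quartiles of −0.85 and −0.42, against a median of 0.05 over all genes tested with quartiles of −0.21 and 0.27. The lower quartile of all genes was thus nearer to 0 than the upper quartile of the proteasome genes. The 3 beta-catenin shRNA arrays all lay below the 3 control arrays for 39 of the 44 and all above for 0, against 24.5% and 29.9% of all genes tested, or 54.4% either way. A fall of at least 1 was reached by 6 of the 44, namely PSMB3, PSMD14, PSMD2, PSMD1, PSMC3 and PSMB6, against 3.39% of all genes tested. Among all genes ordered by the size of their fall, PSMB3 stood at rank 189 and PSMB6 at rank 414. In bulk RNA, fewer cells with a transcript and less of it per cell cannot be told apart.

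**Figure D1:**
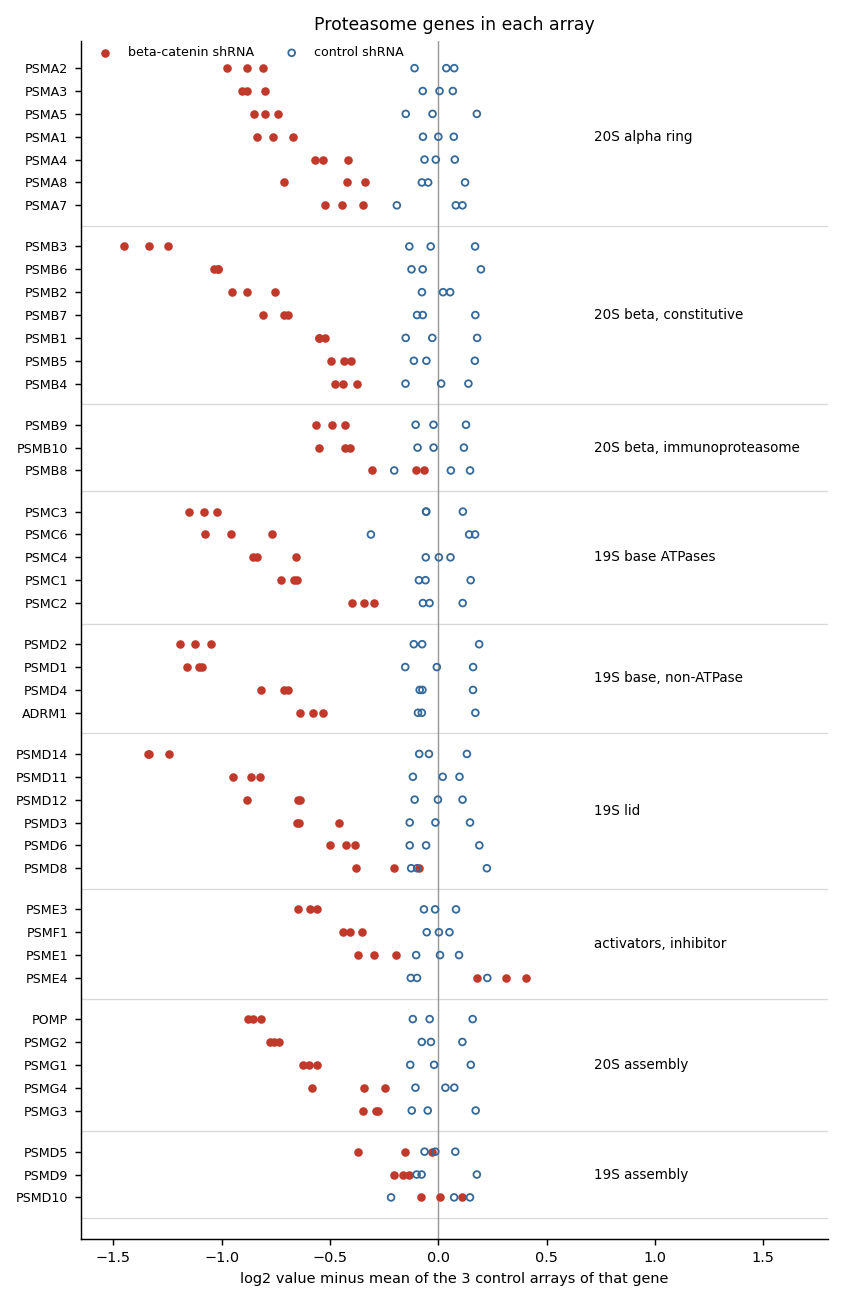
Each row is a proteasome gene and each point an array, as the log2 value minus the mean of the 3 control arrays of that gene; filled points are beta-catenin shRNA and open points control shRNA. Of 44 genes, 39 have all filled points left of all open points; PSMB8, PSMD8, PSMD5, PSMD10 and PSME4 overlap.

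Averaged over the 44 genes and set against the control mean of each gene, the beta-catenin shRNA arrays stood at −0.63, −0.55 and −0.65. The control arrays stood at 0.12, −0.08 and −0.05, with replicate 1 the highest. The gap between the groups was wider than the spread within them, which was 0.05 in beta-catenin shRNA and 0.11 in control arrays (SD, n = 3 each).

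The alpha ring, which forms the gate of the core particle, was called lower in 7 of 7 tested members, with a median of −0.76 and a range of −0.89 to −0.44. PSMA2 read 9.69, 9.77 and 9.60 in beta-catenin shRNA arrays and 10.65, 10.47 and 10.61 in control arrays, a change of −0.89 (SE 0.07; limma, adjusted p = 6.39e-12). PSMA3 read 8.46, 8.55 and 8.44 in beta-catenin shRNA arrays and 9.41, 9.27 and 9.35 in control arrays, a change of −0.86 (SE 0.08; limma, adjusted p = 5.51e-10). The groups did not overlap for either. With a mean over all its probe sets, PSMA3 changed by −0.14 and was not called (adjusted p = 0.191). Its other probe sets lay below the filter, at means of 4.97 and 4.68. The smallest change was that of PSMA7, with 9.25, 9.16 and 9.34 in beta-catenin shRNA arrays and 9.80, 9.77 and 9.50 in control arrays, a change of −0.44 (SE 0.08; limma, adjusted p = 6.33e-05). PSMA5, PSMA1 and PSMA4 fell too, with changes of −0.80, −0.76 and −0.51. PSMA8, an alpha subunit known from testis, changed by −0.49, but it lay at 5.38 ± 0.19 in beta-catenin shRNA and 5.87 ± 0.11 in control arrays (SD, n = 3 each), so it passed the filter of 5.49 only through the control arrays, where it is high. Without it, 6 of 6 alpha genes and 38 of 43 proteasome genes were called lower, a count made after the values were seen. Its call was lost without moderation (adjusted p = 0.0532).

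All 7 constitutive beta subunits fell, and they ran from the largest fall of any proteasome gene to one of the smaller ones. PSMB3, a subunit without a cutting site, read 8.84, 9.04 and 8.96 in beta-catenin shRNA arrays and 10.46, 10.26 and 10.16 in control arrays. Its change of −1.34 (SE 0.08) left 39.4% of the control level (limma, adjusted p = 2.38e-14). PSMB6, the caspase-like beta1 subunit, read 9.12, 9.14 and 9.14 in beta-catenin shRNA arrays and 10.35, 10.03 and 10.08 in control arrays, with 49.2% left (limma, adjusted p = 6.86e-12). PSMB7, the trypsin-like beta2 subunit, read 8.85, 8.84 and 8.74 in beta-catenin shRNA arrays and 9.72, 9.48 and 9.45 in control arrays, a change of −0.74 (SE 0.08; limma, adjusted p = 1.68e-08). PSMB5, the chymotrypsin-like beta5 subunit that bortezomib binds, fell less. It read 7.48, 7.57 and 7.54 in beta-catenin shRNA arrays and 8.14, 7.92 and 7.86 in control arrays, a change of −0.44 (SE 0.10) with 73.5% left (limma, adjusted p = 5.33e-04). PSMB4, another subunit without a cutting site, had the smallest change of the 7, with 10.41, 10.47 and 10.37 in beta-catenin shRNA arrays and 10.99, 10.86 and 10.70 in control arrays (−0.43, SE 0.07; limma, adjusted p = 2.23e-06). The groups did not overlap for any of the 7. PSMB2 and PSMB1 fell too, with changes of −0.86 and −0.54. With a mean over probe sets PSMB7 changed by −0.12 and was not called (adjusted p = 0.355). PSMB2, read by a probe set without an _x_ or _s_ mark (marks for probe sets that may read several transcripts), changed by −0.28 and was not called (adjusted p = 0.0795).

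The immunoproteasome subunits changed less than most of the barrel, though PSMB9 and PSMB10 fell no less than PSMB5, PSMB4 and PSMA7. PSMB9, the beta1i subunit, read 7.31, 7.38 and 7.24 in beta-catenin shRNA arrays and 7.93, 7.70 and 7.78 in control arrays, a change of −0.49 (SE 0.10; limma, adjusted p = 1.63e-04). PSMB10, the beta2i subunit, read 7.87, 7.99 and 8.01 in beta-catenin shRNA arrays and 8.53, 8.39 and 8.32 in control arrays, a change of −0.46 (SE 0.09; limma, adjusted p = 1.55e-04). PSMB8, the beta5i subunit, was not called. It read 7.23, 7.27 and 7.02 in beta-catenin shRNA arrays and 7.48, 7.13 and 7.39 in control arrays, which overlap. Its change was −0.16 with a 95% interval of −0.39 to 0.07 (limma, adjusted p = 0.249). The change of PSMB5, −0.44, lay outside this interval, but the 95% interval of PSMB5, −0.65 to −0.24, overlaps it.

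Whether each immunoproteasome subunit moved unlike the constitutive subunit it replaces was tested within arrays, in 3 pairs. The level of a difference between 2 probe sets has no meaning of its own, and only its shift between groups is read. PSMB9 minus PSMB6 was −1.80, −1.76 and −1.89 in beta-catenin shRNA arrays and −2.42, −2.33 and −2.30 in control arrays, a shift of 0.53 (SE 0.05; exact two-sided permutation p = 0.1, adjusted over 3 pairs 0.15). PSMB10 minus PSMB7 was −0.99, −0.85 and −0.73 in beta-catenin shRNA arrays and −1.18, −1.08 and −1.13 in control arrays, a shift of 0.28 (SE 0.08; exact permutation p = 0.1, adjusted 0.15). PSMB8 minus PSMB5 was −0.25, −0.31 and −0.51 in beta-catenin shRNA arrays and −0.66, −0.79 and −0.47 in control arrays, a shift of 0.29 (SE 0.12; exact permutation p = 0.2, adjusted 0.2). The groups did not overlap for the PSMB9 and PSMB10 pairs and did for the PSMB8 pair. With 3 against 3 arrays the smallest p this test can give is 0.1, so none of the pairs could pass a threshold of 0.05. The PSMB10 shift turned to −0.34 when all probe sets of PSMB7 were averaged, since a dim PSMB7 probe set rose.

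**Figure D2:**
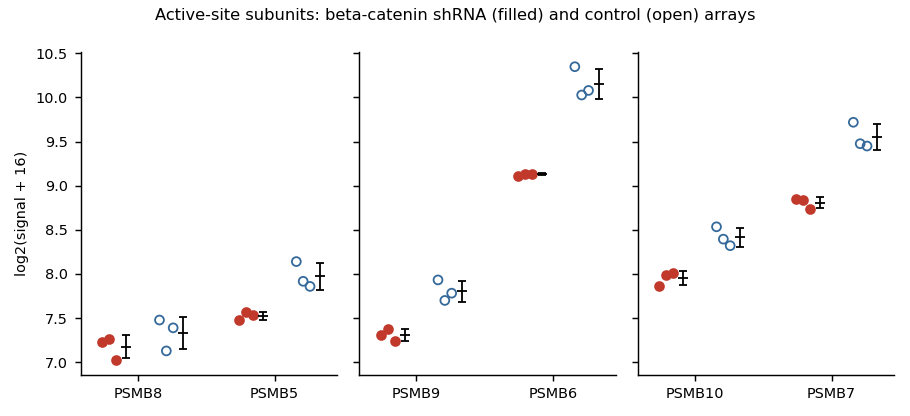
Log2(signal + 16) of the 6 active-site subunits in each array, beta-catenin shRNA (filled) left of control shRNA (open), with mean and SD (n = 3); each panel holds an immunoproteasome subunit and the constitutive subunit it replaces. PSMB9 changed by −0.49 and PSMB6 by −1.02, while PSMB8 overlaps between groups.

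The 19S base, which holds the unfolding ATPases and the largest scaffold subunits, was lower in 9 of 9 tested members. Among the ATPases, PSMC3 read 7.79, 7.92 and 7.86 in beta-catenin shRNA arrays and 9.06, 8.89 and 8.89 in control arrays, a change of −1.08 (SE 0.09; limma, adjusted p = 3.55e-11). PSMC6 read 6.74, 6.93 and 6.62 in beta-catenin shRNA arrays and 7.87, 7.39 and 7.84 in control arrays, a change of −0.94 (SE 0.12; limma, adjusted p = 1.68e-07). For PSMC6 control replicate 2 stood below the other control arrays, yet above each beta-catenin shRNA array. PSMC4 and PSMC1 fell too, with changes of −0.78 and −0.68. PSMC2 had the smallest change, with 9.20, 9.25 and 9.15 in beta-catenin shRNA arrays and 9.66, 9.47 and 9.50 in control arrays (−0.35, SE 0.08; limma, adjusted p = 4.71e-04). The PSMC2 call was lost with a mean over its probe sets (−0.09, adjusted p = 0.391), and its brightest probe set without an _x_ or _s_ mark gave 0.19 (adjusted p = 0.150).

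The non-ATPase part of the base had the lowest median of any class, −0.93. PSMD2 and PSMD1 are large ring-shaped scaffolds, and PSMD2 also docks ubiquitin shuttles. PSMD2 read 8.27, 8.41 and 8.34 in beta-catenin shRNA arrays and 9.65, 9.39 and 9.35 in control arrays, a change of −1.12 (SE 0.09; limma, adjusted p = 1.25e-11). PSMD1 read 7.16, 7.22 and 7.21 in beta-catenin shRNA arrays and 8.48, 8.16 and 8.31 in control arrays, also a change of −1.12 (SE 0.10; limma, adjusted p = 1.76e-10). The ubiquitin receptors of the base fell as well. PSMD4 changed by −0.74. ADRM1 read 8.49, 8.54 and 8.43 in beta-catenin shRNA arrays and 9.24, 8.98 and 8.99 in control arrays, a change of −0.58 (SE 0.09; limma, adjusted p = 2.74e-06). The groups did not overlap for any of the 4.

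All 6 tested subunits of the lid fell, over the widest range of any class whose members all fell, −1.31 to −0.22. PSMD14, the metalloprotease that cuts ubiquitin chains from substrates, read 8.24, 8.34 and 8.25 in beta-catenin shRNA arrays and 9.72, 9.54 and 9.50 in control arrays. Its change of −1.31 (SE 0.08) left 40.4% of the control level (limma, adjusted p = 1.31e-13). PSMD11 read 7.82, 7.87 and 7.74 in beta-catenin shRNA arrays and 8.79, 8.57 and 8.71 in control arrays, a change of −0.88 (SE 0.09; limma, adjusted p = 4.40e-09). On its probe set without an _x_ or _s_ mark it changed by −0.17 and was not called (adjusted p = 0.238). PSMD12, PSMD3 and PSMD6 fell too, with changes of −0.72, −0.59 and −0.44. A dimmer PSMD12 probe set changed by −0.05 and was not called (limma over all probe sets, adjusted p = 0.782). With a mean over probe sets PSMD6 changed by −0.18 and was not called (adjusted p = 0.233). Its other probe set lay below the filter, at a mean of 4.43. PSMD8 was at the edge of the call. It read 8.90, 9.18 and 9.07 in beta-catenin shRNA arrays and 9.50, 9.18 and 9.15 in control arrays, which overlap (−0.22, SE 0.09; limma, adjusted p = 0.0478), and the call was lost in 11 of 18 alternatives.

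The alternative activators and the inhibitor split. PSME3, the nuclear activator PA28 gamma, read 8.21, 8.18 and 8.12 in beta-catenin shRNA arrays and 8.85, 8.70 and 8.76 in control arrays, a change of −0.60 (SE 0.09; limma, adjusted p = 1.60e-06), and fell on 4 of 4 probe sets. PSMF1, the inhibitor PI31, read 7.46, 7.52 and 7.43 in beta-catenin shRNA arrays and 7.87, 7.82 and 7.92 in control arrays, a change of −0.40 (SE 0.10; limma, adjusted p = 0.00108). The call was not made with a mean over its 4 probe sets (−0.15, adjusted p = 0.175), and a probe set without the _x_ or _s_ mark gave 0.19 (adjusted p = 0.198). PSME1, the interferon-induced activator PA28 alpha, read 8.58, 8.75 and 8.65 in beta-catenin shRNA arrays and 9.04, 8.95 and 8.84 in control arrays, a change of −0.29 (SE 0.09; limma, adjusted p = 0.00712). This call was lost without moderation and without beta-catenin shRNA replicate 1 (adjusted p = 0.0543 and 0.0690).

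PSME4, the nuclear activator PA200, was the only proteasome gene called higher. It read 7.72, 7.82 and 7.59 in beta-catenin shRNA arrays and 7.64, 7.31 and 7.28 in control arrays, so control replicate 1 lay above beta-catenin shRNA replicate 3. The change was 0.30 (SE 0.11; limma, adjusted p = 0.0245). Another probe set rose by 0.60 and the dimmest gave −0.19, while in the fit over all probe sets the brightest itself was not called (adjusted p = 0.0674). The call was lost in 8 of 18 alternatives, among them each of the fits without beta-catenin shRNA replicate 1 or 2 or without control replicate 2 or 3 (adjusted p between 0.0698 and 0.121).

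All 5 assembly factors of the core particle fell. POMP, the maturation factor that rides on the unfinished core, read 8.92, 8.95 and 8.89 in beta-catenin shRNA arrays and 9.93, 9.65 and 9.73 in control arrays, a change of −0.85 (SE 0.08; limma, adjusted p = 4.58e-10). PSMG2, which builds the alpha ring together with PSMG1, read 8.78, 8.82 and 8.80 in beta-catenin shRNA arrays and 9.67, 9.48 and 9.52 in control arrays, a change of −0.76 (SE 0.08; limma, adjusted p = 3.60e-09). PSMG1 and PSMG4 fell too, with changes of −0.59 and −0.39, and PSMG4 was not called with a mean over probe sets (−0.16, adjusted p = 0.131). Some of the PSMG4 probe sets lay below the filter. PSMG3, dim at 6.11, 6.10 and 6.04 in beta-catenin shRNA arrays and 6.56, 6.26 and 6.34 in control arrays, changed by −0.30 (SE 0.11; limma, adjusted p = 0.0273), a call lost in 7 of 17 alternatives, 4 of them fits without 1 array (adjusted p between 0.0567 and 0.157).

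None of the 3 chaperones of the 19S base was called, against 47.3% of all genes tested called either way. PSMD9 read 8.18, 8.24 and 8.22 in beta-catenin shRNA arrays and 8.56, 8.30 and 8.28 in control arrays, a change of −0.17 with a 95% interval of −0.36 to 0.03 (limma, adjusted p = 0.151). Its beta-catenin shRNA arrays all lay below its control arrays, which held for 24.5% of all genes tested. PSMD5 read 7.43, 7.31 and 7.10 in beta-catenin shRNA arrays and 7.40, 7.45 and 7.54 in control arrays, a change of −0.18 with an interval of −0.40 to 0.03 (limma, adjusted p = 0.161). PSMD10, also known as gankyrin, read 8.07, 8.17 and 7.98 in beta-catenin shRNA arrays and 8.21, 7.84 and 8.13 in control arrays, a change of 0.012 with an interval of −0.20 to 0.22 (limma, adjusted p = 0.936). Each interval excludes a change of the size of the median proteasome gene. No test of the difference between these 3 genes and the other classes was made.

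**Figure D3:**
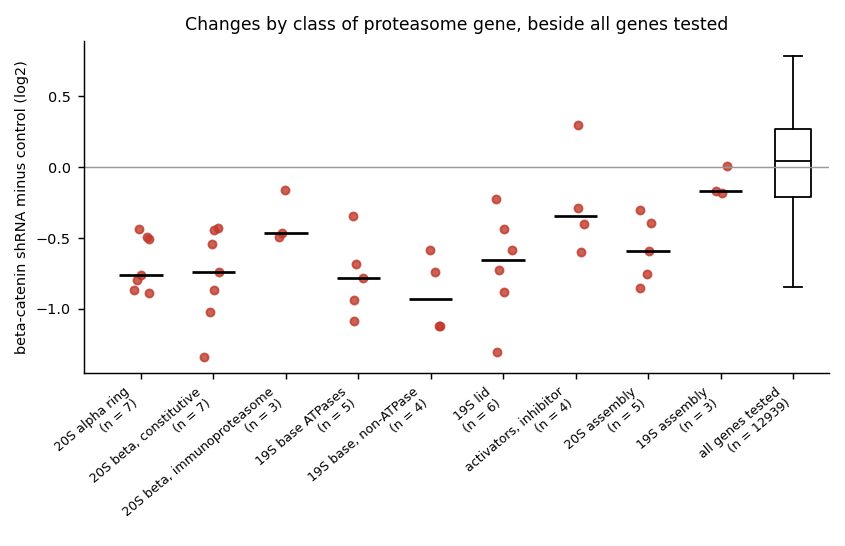
Change in beta-catenin shRNA minus control (log2) of each tested gene by class, with the class median as a line, beside a box plot of all 12939 genes tested (median, quartiles, whiskers at the 5th and 95th percentiles). Class medians run from −0.93 in the non-ATPase base to −0.17 in 19S assembly, against 0.05 for all genes.

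The symbols that the rule took beside the proteasome genes were not called lower when read by their brightest probe sets. Of 7, 4 passed the filter, and 2 of these were called higher. Among all genes tested, 25.3% were called higher and 22.0% lower. PSMD6-AS2, an antisense RNA at the PSMD6 locus, was 6.57 ± 0.09 in beta-catenin shRNA and 6.14 ± 0.05 in control arrays (SD, n = 3 each; change 0.43; limma, adjusted p = 0.00156). PSMB8-AS1, antisense at the PSMB8 locus, was 6.04 ± 0.06 in beta-catenin shRNA and 5.67 ± 0.31 in control arrays (SD, n = 3 each; change 0.37; limma, adjusted p = 0.0197), with groups that overlap. PSMA3-AS1 was not called (0.10), nor was PSME3IP1, which encodes a protein that binds PSME3 (0.02). In the fit over all probe sets, 2 dimmer probe sets of PSME3IP1 were called lower (−0.36, adjusted p = 0.0208, and −0.27, adjusted p = 0.0475), and that of PSMB8-AS1 was not called higher (adjusted p = 0.0764). The PSMB8-AS1 call was lost in 8 of 17 alternatives. PSMD14-DT, PSMD7-DT and PSMG3-AS1 lay below the filter.

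The probe sets of a gene gave a further view of the falls. The 44 genes had 84 probe sets, of which 72 lay above the filter. In a fit over all probe sets, 51 of these 72 were called lower and 2 higher, against 17.1% and 21.2% of all probe sets above the filter. At a mean of 8 or above, 34 of 38 were called lower and 0 higher, with 4 not called. Between 7 and 8 it was 13 of 17, between the filter and 7 it was 4 of 17, and below the filter 0 of 12. The edges at 7 and 8 were chosen after the values were seen. The share of all probe sets called lower was not counted within these bands. Whether the rise with brightness is particular to the proteasome genes was therefore not tested. PSMA1, with 3 probe sets, changed by −0.76, −0.75 and −0.78, and PSMD4, with 3 above the filter, by −0.74, −0.71 and −0.83.

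Other genes had probe sets that went apart. How often the probe sets of a gene differ among all genes tested was not counted, so these counts have no share beside them. Of 18 genes with more than 1 probe set above the filter, 9 were called lower on each of these, 8 had at least 1 not called, and PSMB7 was called in both directions. Its bright probe set was 8.81 ± 0.06 in beta-catenin shRNA and 9.55 ± 0.15 in control arrays. Its dim probe set was 5.87 in beta-catenin shRNA and 5.38 in control arrays, higher by 0.49 (limma over all probe sets, adjusted p = 0.0231), and it passed the filter only through the beta-catenin shRNA arrays, where it is high. PSMB2 changed by −0.86 on its brightest probe set and by 0.07 on another bright probe set, which read 8.96 in beta-catenin shRNA and 8.89 in control arrays (adjusted p = 0.576). PSMB4 changed by −0.43 and −0.41 on its brighter probe sets and by −1.57 on the dimmest. The transcript region behind each probe set was not looked up.

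**Figure D4:**
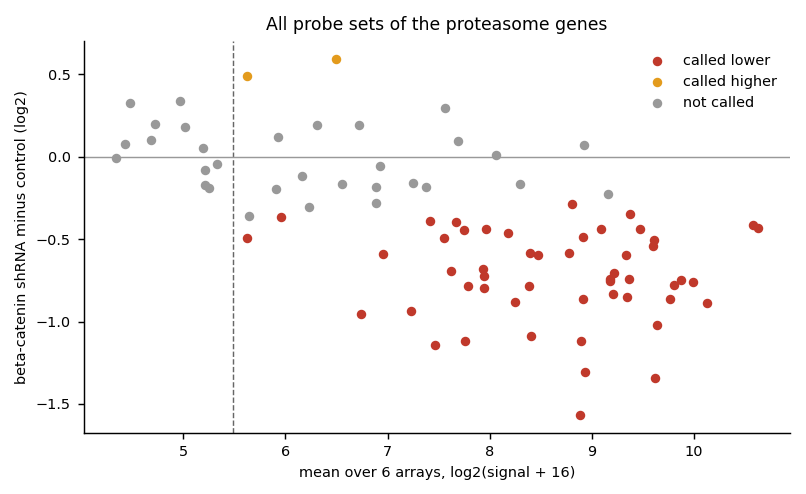
Mean over 6 arrays on the log2(signal + 16) scale against change in beta-catenin shRNA minus control (log2) for the 84 probe sets of the 44 proteasome genes; the dashed line is the filter at 5.49. Of 38 probe sets at 8 or above, 34 were called lower. Over all probe sets above the filter, of any brightness, the share called lower was 17.1%.

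The promoters of the proteasome genes are shown because the genes moved together. In the textbook account, NFE2L1, a transcription factor of the endoplasmic reticulum membrane, is released when proteasome activity is short and binds antioxidant response elements in proteasome promoters with a small MAF partner. RefSeq windows of 300 bases (250 before to 50 after a transcription start, GRCh38.p14) were at hand for 44 of the 50 genes named in the lists. The core of the element, TGACNNNGC on either strand, occurred in the windows of 16 of 44 proteasome genes (36.4%), against 16.1% of all genes with a window. It occurred in 11 of 33 genes called lower and in 3 of 5 that were tested and not called lower, PSMD5, PSMD9 and PSME4. The CCAAT box, CCAAT on either strand, occurred in 21 of 44 (47.7%), against 39.7% of all genes. An interferon-type pair of half-sites, GAAANNGAAA on either strand, occurred in 7 of 44 (15.9%), against 4.38% of all genes. PSMB8 and PSMB10 were among them, as were the activator genes PSME1 and PSME2. So were PSMA4 and PSMB4, which are not immunoproteasome subunits. The immunoproteasome gene PSMB9 had no match. Matches of different motifs were counted separately, also where they overlap. A match describes the letters in a window and shows no binding.

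The windows printed here are of the largest fall (PSMB3), a lid gene with a pair of matches (PSMD3), the gene called higher (PSME4) and an immunoproteasome subunit that was not called (PSMB8). Each printed window holds a match. Of other genes with a fall of at least 1, PSMD1 had a TGACNNNGC match, while PSMD14, PSMD2 and PSMC3 had none. Capitals mark TGACNNNGC, or in PSMB8 GAAANNGAAA, in either orientation. PSMB3 lies at chr17:38752491-38752790 on the plus strand, and its match starts 104 bases before the start. PSMD3 lies at chr17:39980557-39980856 on the plus strand with matches starting 37 bases before and 33 bases after the start, PSME4 at chr2:53970944-53971243 on the minus strand with its match starting 34 bases before the start, and PSMB8 at chr6:32843998-32844297 on the minus strand. PSMB8 has another window, at chr6:32844630-32844929, which holds neither motif and is not printed.
PSMB3: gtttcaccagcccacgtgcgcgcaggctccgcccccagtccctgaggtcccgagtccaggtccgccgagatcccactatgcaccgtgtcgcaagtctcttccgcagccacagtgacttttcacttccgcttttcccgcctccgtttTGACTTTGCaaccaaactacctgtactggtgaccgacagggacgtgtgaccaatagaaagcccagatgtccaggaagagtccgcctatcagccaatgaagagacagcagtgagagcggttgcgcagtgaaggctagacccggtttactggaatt
PSMD3: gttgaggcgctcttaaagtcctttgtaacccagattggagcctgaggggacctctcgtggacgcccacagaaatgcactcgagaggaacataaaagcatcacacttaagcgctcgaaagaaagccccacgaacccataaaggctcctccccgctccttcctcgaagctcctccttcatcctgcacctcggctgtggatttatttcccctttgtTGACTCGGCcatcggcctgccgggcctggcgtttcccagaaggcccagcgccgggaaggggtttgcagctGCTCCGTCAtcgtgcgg
PSME4: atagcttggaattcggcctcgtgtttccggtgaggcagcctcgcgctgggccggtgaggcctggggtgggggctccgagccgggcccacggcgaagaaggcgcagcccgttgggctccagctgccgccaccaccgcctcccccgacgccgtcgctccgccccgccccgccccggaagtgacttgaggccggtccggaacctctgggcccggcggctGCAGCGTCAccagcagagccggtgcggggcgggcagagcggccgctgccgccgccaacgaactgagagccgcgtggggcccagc
PSMB8: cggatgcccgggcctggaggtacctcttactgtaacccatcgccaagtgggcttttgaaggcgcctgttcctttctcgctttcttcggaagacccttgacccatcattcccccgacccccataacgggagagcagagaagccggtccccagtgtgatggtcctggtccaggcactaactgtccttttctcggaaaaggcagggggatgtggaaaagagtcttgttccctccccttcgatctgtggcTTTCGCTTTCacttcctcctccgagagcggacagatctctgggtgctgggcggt

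The transcription list held NFE2L1, its relatives, partners and processing enzymes: 4 of 8 tested were called higher and 0 lower, against 25.3% and 22.0% of all genes tested, and the median change was 0.20. NFE2L1 read 9.31, 9.24 and 9.27 in beta-catenin shRNA arrays and 8.13, 7.97 and 7.79 in control arrays, a change of 1.31 (SE 0.09; limma, adjusted p = 9.66e-13), and its other 2 probe sets rose by 1.75 and 1.30. MAFF, a small MAF protein, read 7.22, 7.10 and 6.79 in beta-catenin shRNA arrays and 5.65, 5.39 and 5.84 in control arrays, a change of 1.41 (SE 0.13; limma, adjusted p = 1.51e-10). NFE2L2, the oxidative stress factor NRF2, rose by 0.33. It was not called when its probe sets were averaged, at 0.03 (adjusted p = 0.824).

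Factors that bind the proteasome were mixed: among 13 tested, 5 fell and 2 rose, against 22.0% lower and 25.3% higher among all genes tested, and the median change was −0.17. SEM1, a small lid subunit outside the symbol rule, read 8.73, 8.88 and 8.71 in beta-catenin shRNA arrays and 10.12, 9.95 and 9.89 in control arrays, a change of −1.21 (SE 0.08; limma, adjusted p = 2.16e-13). UCHL5, the deubiquitinase that ADRM1 recruits, fell by 0.67, but a probe set without the _x_ or _s_ mark gave 0.24 (adjusted p = 0.101). The ubiquitin ligase UBE3A fell by 0.31, and by the same choice of probe set gave 0.11 (adjusted p = 0.493). ZFAND5 and ZFAND2A, zinc finger proteins that act on the proteasome, rose by 0.65 and 0.35.

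Among 13 genes of ubiquitin, its activating enzymes and shuttles, 8 fell and 2 rose, and the median change was −0.30. The shares of all genes tested were 22.0% lower and 25.3% higher. UFD1 and NPLOC4 form the ubiquitin-binding cofactor of the unfoldase VCP. UFD1 read 7.31, 7.39 and 7.28 in beta-catenin shRNA arrays and 8.76, 8.53 and 8.53 in control arrays, a change of −1.28 (SE 0.10; limma, adjusted p = 4.74e-12). NPLOC4 fell by 0.75 and the ubiquitin gene UBB by 0.64. SQSTM1, the autophagy receptor p62, rose by 0.45. UBQLN4, a shuttle, rose by 0.30 on its brightest probe set, which has an _x_ mark. Another probe set was called lower (−0.32; limma over all probe sets, adjusted p = 0.0330), and averaging them gave −0.012 (adjusted p = 0.912).

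Peptide supply to MHC class I, which draws on the immunoproteasome's products, was called higher in most tested genes. Among 10, 8 rose and 1 fell, against 25.3% and 22.0% of all genes tested, and the median change was 0.45. HLA-B read 11.65, 11.72 and 11.68 in beta-catenin shRNA arrays and 10.84, 10.72 and 10.69 in control arrays, a change of 0.93 (SE 0.05; limma, adjusted p = 4.17e-15). HLA-C rose by 0.79 and B2M, the light chain, by 0.45. The HLA probe sets may read more than 1 class I gene. The peptide transporter gene TAP2 fell by 0.57, but gave 0.21 with its brightest probe set without the _x_ or _s_ mark (adjusted p = 0.169).

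**Figure D5:**
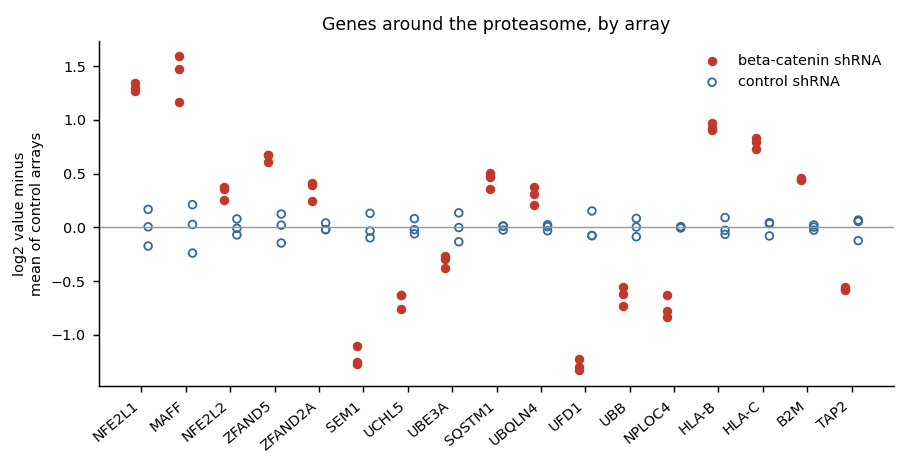
Log2 value minus the mean of the 3 control arrays for the called genes with the smallest adjusted p of each surrounding list, up to 3 in each direction; filled points are beta-catenin shRNA arrays and open points control arrays. NFE2L1 and MAFF lie above 1 in each beta-catenin shRNA array, while SEM1 and UFD1 lie below −1.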

How the data were processed

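RNA of MM1.S cultures was measured on 6 Affymetrix arrays of 1 colour, 3 per group, grouped by the sample titles. The authors deposited log2 values, 1 per probe set and array; MAS5 and PLIER are listed in the submitters' processing notes with no role, and no source used here states how arrays were normalized. The floor at 4 fits log2(signal + 16), a form read from the values. Array medians were 5.50 to 5.54 in beta-catenin shRNA and 5.44 to 5.50 in control arrays, and values were used as deposited. A label text about embryos contradicts the cell line and was not used.

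Of 54675 probe sets, 62 controls were left out of tests, 41091 had 1 symbol (platform annotation), 1801 had several and 11721 had none here; 41043 were found by gene ID in RefSeq GRCh38.p14. The brightest probe set read a gene, and 12939 of 19775 genes with a mean at or above 5.49, the median of all probe set means, were tested. Changes are beta-catenin shRNA minus control from limma 3.58.1 (lmFit, eBayes with trend, R 4.3.3); two-sided p-values were adjusted by Benjamini-Hochberg over every gene tested, at a threshold of 0.05. The fit was tried on simulated data made from these arrays (12939 genes), with a change added to 200 genes. There it recovered 97% of changes of 1 and 53% of changes of 0.5 on the log2 scale. In the arrays themselves 6114 genes were called, and recovery with that many changed genes was not tested. The p-values measure the spread between cultures, which may be technical. Members, lists and the rule for named genes (active-site subunits, activators, POMP and ADRM1, the 2 largest and the smallest change of each class, and up to 3 called genes per direction of each surrounding list) were chosen with earlier results of these data known. Alternatives changed scaling, filter, probe set rule, replicate block, variance model, null hypothesis, offset and the arrays used. The number of arrays limits the precision.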

Additional observations from a re-analysis of the deposited data

Results flagged for a closer look

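The 6 ribosomal RNA control probe sets of the arrays, which no comparison used, stood out because their mean was higher in beta-catenin shRNA than in control arrays. It was 9.92 ± 0.26 in beta-catenin shRNA and 9.02 ± 0.54 in control arrays (SD, n = 3 each), a difference of 0.90 (exact two-sided permutation p = 0.1, the smallest 3 against 3 arrays can give).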

How the results depend on the processing

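The number of proteasome genes called lower, 39 of 44, was 27 to 39 over 18 alternatives, and 38 of 43 without PSMA8, an alternative chosen after seeing the data: 38 to 39 under 3 other scalings, 32 with a mean over probe sets (44 tested) and 32 when unmarked probe sets, those lacking _x_ and _s_, were preferred (42 tested), 27 against a 1.2-fold change, and 36 to 39 without 1 array. The single gene called higher, PSME4, was not called (0 genes) when centred on array medians, with the replicate block, without moderation and against a 1.2-fold change, and without 1 array the count was 0 to 1. Over all genes, 1459 were called lower and 1366 higher against a 1.2-fold change. Same-numbered cultures did not deviate together (correlations of −0.09, −0.26 and −0.30). With 3 arrays per group this cannot show whether the cultures were handled in pairs. The replicate block left 37 proteasome genes lower. The shift of PSMB10 minus PSMB7 reversed to −0.34 with the mean over probe sets; the cause lies in a dim PSMB7 probe set that rose. The direction turned for PSMC2 (0.19), PSMF1 (0.19), UCHL5 (0.24), UBE3A (0.11) and TAP2 (0.21) under the preference for unmarked probe sets, and for PSMD5 (0.071), PSMA3-AS1 (−0.024) and UBQLN4 (−0.012) with the mean over probe sets. PSMD10 gave −0.043 when centred and −0.098 to 0.085 without 1 array, and PSME3IP1 −0.037 when centred, −0.19 with the mean over probe sets and −0.055 to 0.12 without 1 array. For PSMD5 the mean took in a probe set below the filter that changed by 0.33, and for UBQLN4 a dimmer one that changed by −0.32. For the other turned directions the cause was not tested. Dim probe sets limit what can be seen, since the offset of 16 shrinks their changes. The mean over probe sets also takes in those below the filter.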
